A study of Mus musculus with 4 samples.

Results

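The genes of cytochrome P450 family 2 (Cyp2) were followed in mouse periodontal ligament (PDL), the tissue that holds a tooth in its socket. The members were chosen by symbol: every gene named Cyp2, 1 letter and a number, found through the RefSeq accession of its array probe, with symbols ending in -ps left out. They numbered 47 of the 22911 genes named on the array. RefSeq lists 49 such symbols, and Cyp2j12 and Cyp2j7 had no named probe. Cyp2d13, counted among the 47, is a transcribed pseudogene in RefSeq. The family was picked with earlier results of these arrays in view, and the probe of each gene was selected on signal, so all values below are descriptions with no test.

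Cytochromes P450 of this family are haem enzymes of the endoplasmic reticulum that take electrons from a reductase and insert oxygen into drugs, odorants, steroids and fatty acids. In mammals they are best known from liver, and several mouse members are also abundant in nasal mucosa or airway. Many lie in gene clusters that arose by duplication, so probes of close paralogs can share signal.

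The study compared PDL of wild-type (WT) mice with PDL of mice lacking Mkx (Mkx-KO), the gene of the tendon and ligament transcription factor Mohawk, at 10 and 4 weeks of age. Total RNA of each group was hybridised to 1 one-colour Agilent array, in the order in which series of 4 values are given below: 10-week WT, 10-week Mkx-KO, 4-week WT, 4-week Mkx-KO. The labels give neither the knockout allele, the strain, the sex nor the number of mice behind an array. With 1 array per group no difference has a replicate check, and no p-value was computed.

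The 4 arrays lay on 1 slide, 61.8% to 66.6% of their spots were well above background by the scanner software, and none was saturated. Of the PDL and tendon markers listed, 11 of 11 on the array were well above background on all 4 arrays. The brighter Mkx probe read 553, 108, 563 and 193, a difference between Mkx-KO and WT of -2.10 at 10 weeks and -1.65 at 4 weeks on the log2 scale. Whether this probe lies in the deleted part is not given in the sources used here. Signals are processed intensities on a linear scale. A level is the log2 signal minus the 75th percentile of its array, and a difference is between levels of 1 probe. Each difference carries a technical error from the scanner software, with a median of 0.21 log2 units for the members, which does not cover variation between mice. A gene was measured in a comparison when it was well above background on both arrays, and called when it was then at least 2-fold apart. Otherwise a gene seen on 1 of the arrays has only a bound, written as at least N-fold. The bound uses the gene's own level on the other array, or the dimmest level the software called above background there, whichever is higher. In these bulk samples, fewer cells of a type and less RNA per cell cannot be told apart.

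The family was sparsely detected. Of the 47 members, 28 (59.6%) were well above background in WT at 10 weeks, against 73.7% of all named genes. The count was 26 (55.3%) in Mkx-KO at 10 weeks, beside 72.7% of all genes. It was 24 (51.1%) in WT at 4 weeks, beside 71.5%, and 18 (38.3%) in Mkx-KO at 4 weeks, beside 69.6%. The lowest share was thus that of Mkx-KO at 4 weeks, in the members and in all genes. Altogether 30 members were well above background on at least 1 array and 16 on all 4. The other 17 were well above background on none: Cyp2b13, Cyp2b23, Cyp2c29, Cyp2c37, Cyp2c39, Cyp2c40, Cyp2c50, Cyp2c54, Cyp2c67, Cyp2c68, Cyp2c69, Cyp2d9, Cyp2d10, Cyp2d13, Cyp2d40, Cyp2j5 and Cyp2j11. They include most of the Cyp2c genes, a subfamily known from liver, of which 6 of 15 were seen on any array.

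**Figure D1:**
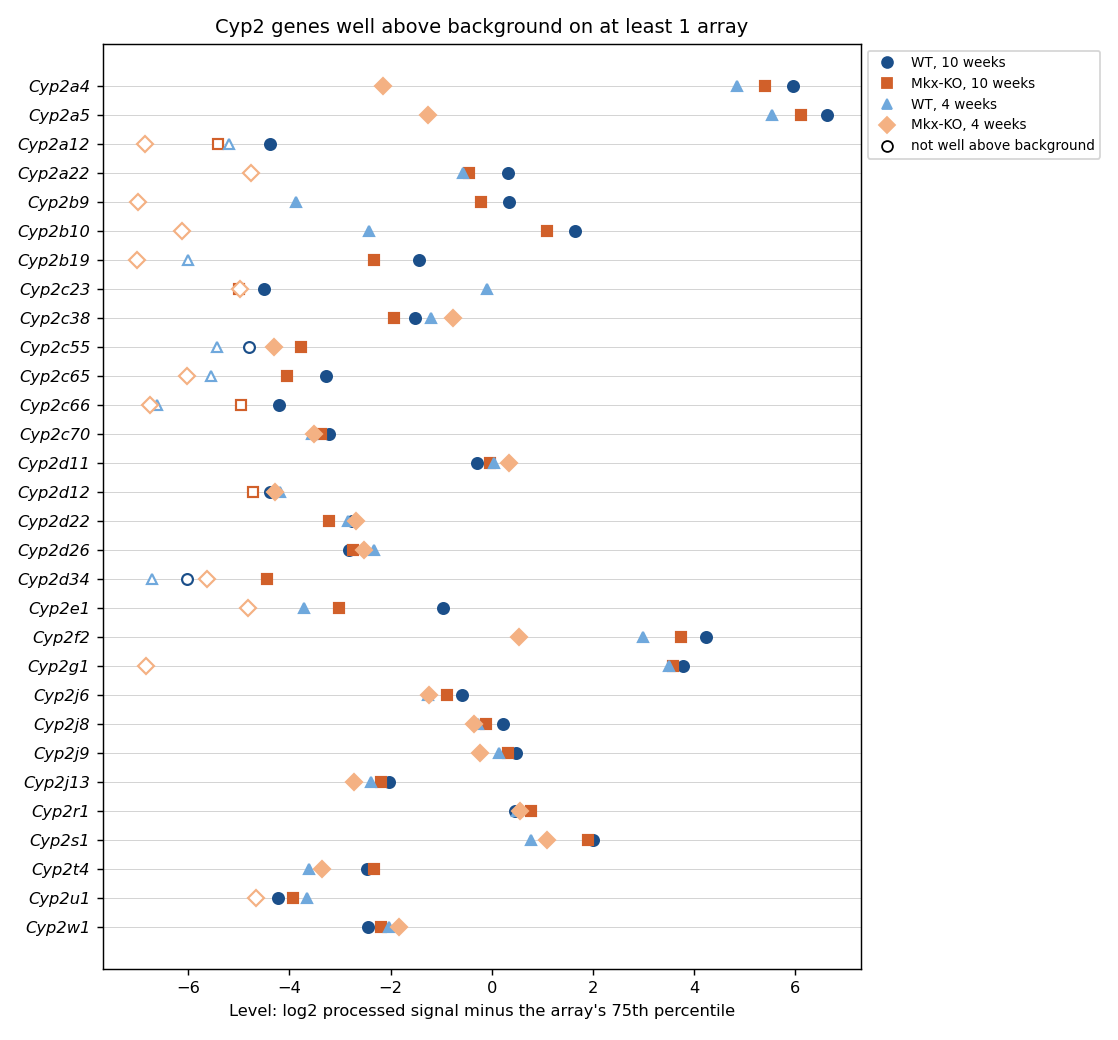
Level of the 30 Cyp2 genes well above background on at least 1 array (x axis: log2 processed signal minus the array's 75th percentile), with 1 symbol per array and open symbols for values not well above background. Cyp2a4, Cyp2a5, Cyp2f2 and Cyp2g1 are each lowest on the array of Mkx-KO at 4 weeks, at -2.16, -1.27, 0.54 and -6.83.

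Among the 16 members seen on all 4 arrays, 6 fell from high to low in just the order in which the groups are listed above, as did 8.54% of 15504 genes. These were Cyp2a4, Cyp2a5, Cyp2f2, Cyp2j8, Cyp2j9 and Cyp2j13. Genotype steps of Cyp2j8 (-0.08, 4 weeks), Cyp2j9 (-0.14, 10 weeks) and Cyp2j13 (-0.17, 10 weeks) lay within their technical errors. Levels spanned less than 1 log2 unit over the arrays for 10 of the 16, and for 82.8% of the genes.

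Cyp2a4 and Cyp2a5 encode steroid and coumarin hydroxylases of liver and nasal mucosa. They are near-identical paralogs, and their promoters are shown because the pair moved together. The bases are those of RefSeq GRCm38.p6, 250 before to 50 after the annotated start, on the + strand, at chr7:26306942-26307241 for Cyp2a4 and chr7:26835089-26835388 for Cyp2a5. Capitals mark, in order, matches to the C/EBP motif TTGCNNAA, the HNF4 motif CAAAGTCC and the TATA box TATAAA.
Cyp2a4: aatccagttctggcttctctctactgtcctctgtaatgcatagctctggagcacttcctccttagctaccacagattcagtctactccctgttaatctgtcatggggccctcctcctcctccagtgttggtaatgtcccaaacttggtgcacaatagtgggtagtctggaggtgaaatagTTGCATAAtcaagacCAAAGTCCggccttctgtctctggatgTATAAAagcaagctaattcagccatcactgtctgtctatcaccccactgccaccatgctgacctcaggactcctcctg
Cyp2a5: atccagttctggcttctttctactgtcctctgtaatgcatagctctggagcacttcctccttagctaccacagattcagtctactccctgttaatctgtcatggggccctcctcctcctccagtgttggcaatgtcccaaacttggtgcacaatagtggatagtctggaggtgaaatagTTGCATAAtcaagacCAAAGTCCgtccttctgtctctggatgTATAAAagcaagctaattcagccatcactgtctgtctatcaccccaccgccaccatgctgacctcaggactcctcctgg
The windows matched at 294 of 299 aligned bases (98.3%). Searched on both strands, TTGCNNAA occurred in 10.8% of 32851 RefSeq promoters of the same length, CAAAGTCC in 1.42% and TATAAA in 13.6%. Of the 39 members with a promoter in the table, 13, 9 and 21 held these motifs. The window of Cyp2f2, called lower in Mkx-KO at 4 weeks (below), held none of them. That of Cyp2c70, called in no comparison, held CAAAGTCC and TATAAA. A match is a run of letters, not evidence that a factor binds.

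The Cyp2a4 signal was 19073 and 10954 in 10-week WT and Mkx-KO, and 7693 and 64.2 in 4-week WT and Mkx-KO. The Cyp2a5 signal was 30440, 18079, 12529 and 119 in the same order. Both were therefore high on 3 arrays and low on the array of Mkx-KO at 4 weeks. At that age the difference between Mkx-KO and WT was -7.01 ± 0.21 (technical error) for Cyp2a4 and -6.82 ± 0.21 for Cyp2a5, ranks 8 and 9 from the lowest of 15686 genes. At 10 weeks it was -0.55 and -0.50. The paralogs cannot be told apart where probes share signal. Cyp2a22, whose role is less studied, read 386, 190, 180 and 10.5, which put it at least 17.3-fold below WT in 4-week Mkx-KO tissue. Cyp2a12, a steroid hydroxylase of liver, read 14.8, 6.12, 7.30 and 2.48, and was well above background in WT at 10 weeks alone.

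Cyp2g1 and Cyp2f2 are typical of nasal mucosa and of the airway. Cyp2g1, an olfactory mucosa enzyme, read 4236, 3121, 3041 and 2.51, so it was bright on 3 arrays and not well above background on the last. At 4 weeks the fall from WT to Mkx-KO was at least 292-fold, and its difference at 10 weeks was -0.19. Cyp2f2, the naphthalene-oxidising enzyme of mouse club cells, read 5791, 3475, 2140 and 416. It was well above background on every array, with a difference of -2.47 ± 0.20 at 4 weeks and -0.48 at 10 weeks.

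**Figure D2:**
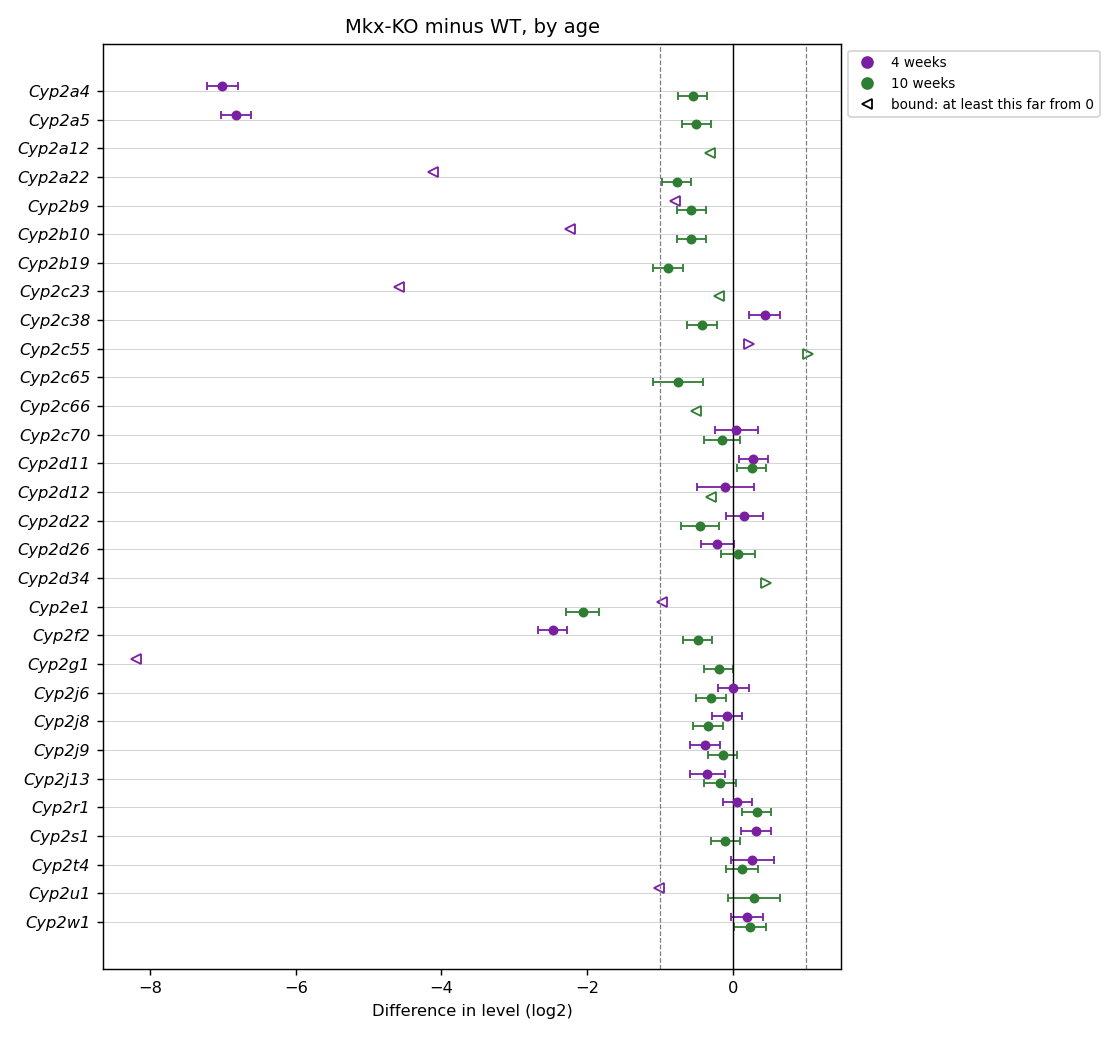
Difference in level between Mkx-KO and WT (x axis, log2) at 4 weeks (purple) and 10 weeks (green) for each Cyp2 gene with a value, with technical errors as bars. Open triangles are bounds and dashed lines mark 2-fold. Cyp2a4, Cyp2a5 and Cyp2f2 lie past the 2-fold line at 4 weeks and Cyp2e1 at 10 weeks.

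At 4 weeks, 17 members were measured in both genotypes. The 3 called lower in Mkx-KO were Cyp2a4, Cyp2a5 and Cyp2f2 (17.6% of the 17, beside 3.31% of all genes). No member was called higher, beside 0.472% of all genes. The members split into 8 with a negative and 9 with a positive difference, and their median was 0.01 against 0.06 over all genes. Another 8 were seen in 1 genotype, 7 of them in WT, which fixes their direction. By their bounds 5 of the 8 were at least 2-fold lower in Mkx-KO, beside 39.5% of all genes seen in 1 genotype: Cyp2g1, Cyp2c23, Cyp2a22, Cyp2b10 and Cyp2u1. With the 8 at their bounds the median was -0.21 (25 members). The signals of Cyp2r1, a vitamin D hydroxylase, were 421, 446, 377 and 424, a difference of 0.06 at 4 weeks.

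At 10 weeks, 24 members were measured. The 1 called lower in Mkx-KO was Cyp2e1 (4.17%, beside 1.37% of all genes), and none was called higher, beside 1.04%. Cyp2e1, the ethanol-oxidising enzyme, read 158, 31.8, 20.4 and 10.2. Its difference at 10 weeks was -2.06 ± 0.23, rank 23 from the lowest of 16457 genes. After normexp background correction it was -1.08. A dimmer probe of the gene read 19.9 in WT at 10 weeks and was well above background on no other array. In all, 18 members had a negative and 6 a positive difference, with a median of -0.32 against 0.01 over all genes. This median was -0.12 after normexp and -0.17 with no filter on dim probes. The genotype comparisons at the 2 ages use different arrays, but each shares its arrays with the age comparisons.

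The members called lower at 4 weeks lay in 1 gene cluster. On chromosome 7, RefSeq places 13 members in the order Cyp2s1, Cyp2b10, Cyp2b13, Cyp2b9, Cyp2a4, Cyp2b23, Cyp2b19, Cyp2g1, Cyp2a5, Cyp2a22, Cyp2a12, Cyp2f2 and Cyp2t4. Of the 13, 5 were measured in both genotypes at 4 weeks. All 3 members called lower and 3 of the 5 with a bound of at least 2-fold lower belong to this run. The ends of the run did not share the pattern. Cyp2s1, an epithelial P450 that metabolises eicosanoids, read 1236, 971, 454 and 610, and its difference at 4 weeks was 0.32. Cyp2t4 read 56.1, 51.6, 21.7 and 28.0, with a difference of 0.27. Elsewhere, 2 of the 14 members of the Cyp2c cluster on chromosome 19 were measured at 4 weeks. So were 4 of the 9 of the Cyp2d cluster on chromosome 15 and 4 of the 6 of the Cyp2j cluster on chromosome 4. Cyp2r1 and Cyp2w1, outside these clusters, were measured too. None of these members was called lower.

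**Figure D3:**
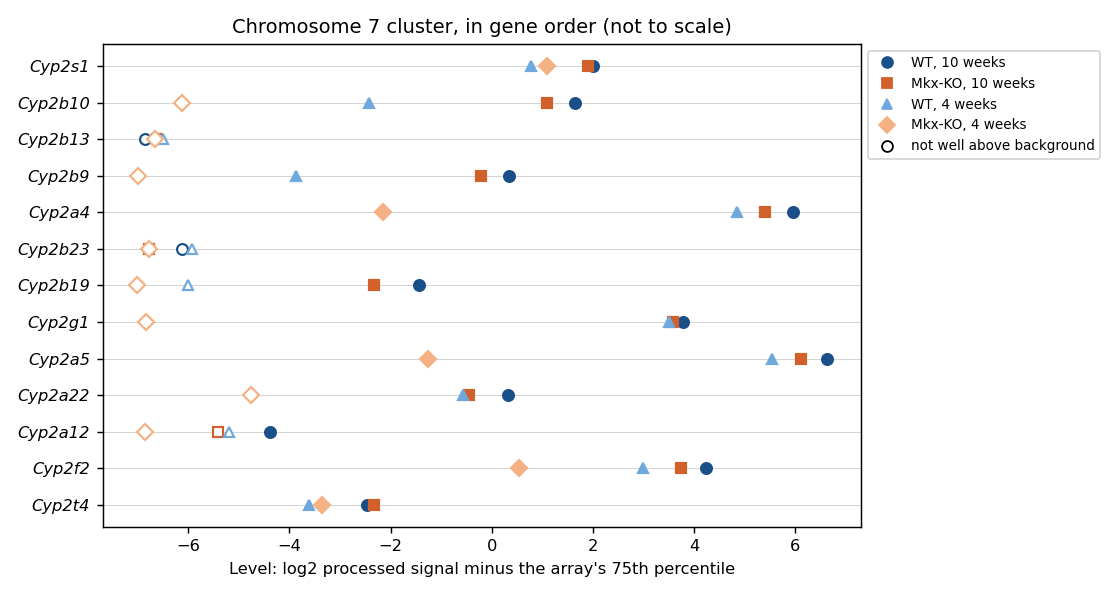
Levels on the 4 arrays (x axis, log2 relative to the array's 75th percentile) of the 13 Cyp2 genes of the chromosome 7 cluster, listed in gene order and not to scale. Open symbols are not well above background. Cyp2s1 and Cyp2t4, at the ends, are not low in Mkx-KO at 4 weeks.

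In WT, the largest measured increases with age among the members were those of Cyp2b9 and Cyp2b10. Cyp2b10 encodes an enzyme that barbiturates induce in liver through the receptor CAR, and Cyp2b9 is a close relative of it. Their promoters are shown for comparison with the Cyp2a pair, from RefSeq GRCm38.p6 on the + strand at chr7:26173159-26173458 and chr7:25897408-25897707, with the C/EBP motif TTGCNNAA in capitals.
Cyp2b9: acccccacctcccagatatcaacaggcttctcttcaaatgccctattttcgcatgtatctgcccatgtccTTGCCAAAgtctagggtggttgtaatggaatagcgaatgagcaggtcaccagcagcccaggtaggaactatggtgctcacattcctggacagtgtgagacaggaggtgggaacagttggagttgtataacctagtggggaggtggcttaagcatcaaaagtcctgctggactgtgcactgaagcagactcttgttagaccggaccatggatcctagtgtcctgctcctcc
Cyp2b10: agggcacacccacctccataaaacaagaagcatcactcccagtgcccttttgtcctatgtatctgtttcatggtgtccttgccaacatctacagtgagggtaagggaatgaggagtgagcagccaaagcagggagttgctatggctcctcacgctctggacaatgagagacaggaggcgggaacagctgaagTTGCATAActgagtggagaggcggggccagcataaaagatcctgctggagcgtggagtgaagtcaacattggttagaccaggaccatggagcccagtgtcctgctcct
Aligned without gaps, these windows matched at 49.2% of bases, and neither held TATAAA or CAAAGTCC. Cyp2b9 read 394, 223, 18.1 and 2.25. Cyp2b10 read 971, 550, 49.4 and 4.10. Both were higher at 10 weeks in each genotype. In WT the difference between 10 and 4 weeks was 4.24 ± 0.27 for Cyp2b9 and 4.08 ± 0.22 for Cyp2b10, ranks 7 and 11 from the highest of 16102 genes. In Mkx-KO they were at least 22.0-fold and 54.3-fold higher at 10 weeks. A dimmer Cyp2b10 probe read 60.2, 28.7, 2.61 and 2.59. Cyp2b19, a keratinocyte arachidonic acid epoxygenase, read 115, 51.9, 4.13 and 2.22, and was at least 8.6-fold higher at 10 weeks in WT and 5.12-fold in Mkx-KO.

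In WT, 8 of 24 measured members were called higher at 10 than at 4 weeks (33.3%, beside 5.01% of all genes): Cyp2b9, Cyp2b10, Cyp2e1, Cyp2s1, Cyp2f2, Cyp2t4, Cyp2a4 and Cyp2a5. Their differences ran from 1.07 for Cyp2a5 to 4.24 for Cyp2b9, with 2.74 ± 0.27 for Cyp2e1. After normexp background correction Cyp2b9 was at 2.49, Cyp2e1 at 1.30 and Cyp2t4 at 0.33 in place of 1.16, no longer past 2-fold. Cyp2c23, an arachidonic acid epoxygenase of kidney, was the 1 called lower, beside 3.83% of all genes, at -4.41, or -2.17 after normexp. It read 13.6, 8.14, 250 and 9.08, but its spot in WT at 4 weeks lay where neighbouring spots were also bright, with a window median of 0.84 log2 units, and its other probe was well above background on no array. Without it no measured member was called lower with age in WT, and 4 rather than 5 members had a bound of at least 2-fold lower in Mkx-KO at 4 weeks. The median was 0.35 against -0.10 over all genes.

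In Mkx-KO, 4 of 17 measured members were called higher at 10 weeks (23.5%, beside 6.25% of all genes): Cyp2a4 by 7.56, Cyp2a5 by 7.39, Cyp2f2 by 3.21 and Cyp2t4 by 1.02. The 1 called lower (beside 3.84%) was Cyp2c38, a fatty acid oxygenase, which read 108, 67.8, 115 and 168, at -1.17 ± 0.21. Cyp2t4 and Cyp2c38 were past 2-fold here under 3 of 5 other ways of processing. Of 10 members seen at 1 age, 6 were at least 2-fold higher at 10 weeks by their bounds, beside 41.2% of all genes seen at 1 age, from 3.14-fold for Cyp2e1 to 308-fold for Cyp2g1. The median was 0.37 against -0.15 over all genes, and 0.56 with bounds (27 members).

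**Figure D4:**
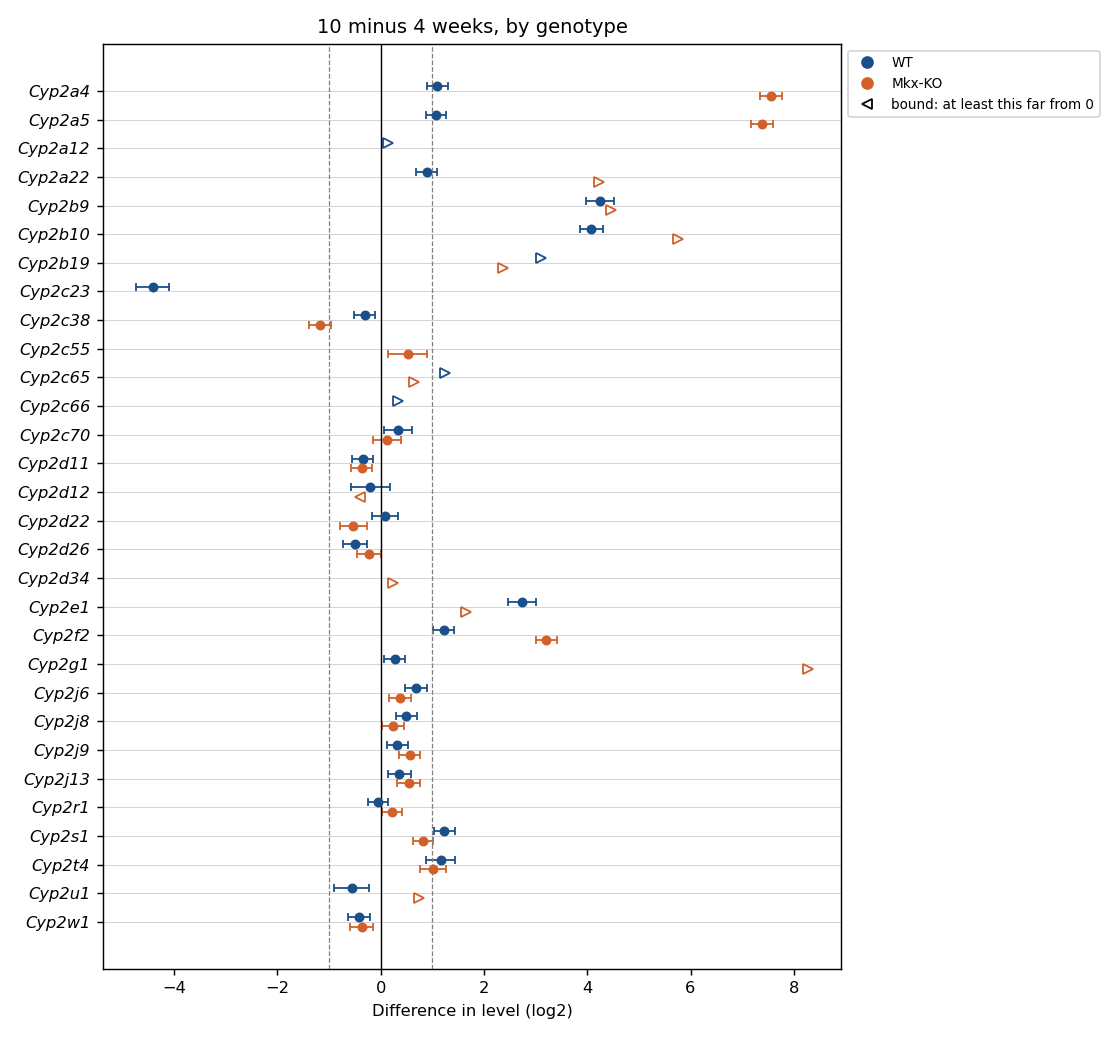
Difference in level between 10 and 4 weeks (x axis, log2) in WT (blue) and Mkx-KO (orange) for each Cyp2 gene with a value, with technical errors as bars and open triangles for bounds. Cyp2b9 and Cyp2b10 lie near 4 in WT, while Cyp2a4 and Cyp2a5 lie near 1 in WT and past 7 in Mkx-KO.

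Of the Cyp2j genes, a subfamily of arachidonic acid epoxygenases, Cyp2j6, Cyp2j8, Cyp2j9 and Cyp2j13 were seen on all arrays. Cyp2j6 read 206, 141, 111 and 120, Cyp2j8 read 360, 239, 220 and 224, and Cyp2j13 read 75.6, 56.6, 51.0 and 43.1. Cyp2j9 read 427, 325, 296 and 244, and its genotype difference was -0.38 at 4 weeks and -0.14 at 10 weeks. Of the Cyp2d genes, relatives of the human debrisoquine hydroxylase, Cyp2d11 read 252, 253, 277 and 362. Cyp2d22 read 45.2, 27.8, 37.0 and 44.4, and Cyp2d26 read 43.7, 38.5, 53.2 and 49.6. None of these was called in any comparison. Cyp2w1 read 56.7, 56.4, 65.4 and 80.4, Cyp2c70, a bile acid hydroxylase, read 33.0, 24.9, 22.6 and 25.1, and Cyp2u1, a fatty acid hydroxylase, read 16.6, 17.0, 21.1 and 11.2. Near the background lay Cyp2c65 and Cyp2c66, enzymes of the gut. Cyp2c65 read 31.7, 15.8, 5.68 and 4.40 and was seen on both 10-week arrays, and Cyp2c66 read 16.8, 8.33, 2.71 and 2.65 and was seen on the first array alone. Cyp2d12 read 14.7, 9.78, 14.6 and 14.6, and Cyp2d34 read 4.77, 12.0, 2.54 and 5.74, seen on the second array alone. Cyp2c55 read 11.0, 18.9, 6.15 and 14.6. Cyp2c55 was seen on both Mkx-KO arrays only, at 10 weeks at least 2.04-fold above WT.

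Other genes of the pathway were listed by role. The lists of fatty acid oxygenases and vitamin D genes are not described here. Of P450 family 4, 8 of 15 genes were measured at 4 weeks. Cyp4b1 (-1.88) was called lower in Mkx-KO and Cyp4f39 (1.14) higher, beside 3.31% and 0.472% of all genes. Cyp1b1 (-0.03) and Cyp3a13 (-0.58), of families 1 and 3, were not called at that age. At 10 weeks Cyp1a2 (-1.63) and Cyp3a13 (-1.81) were called lower, beside 1.37%, and no family 4 gene was called. The electron donors and haem supply, among them the reductase Por, had 10 of 10 genes measured and none called by genotype. Of the receptors and sensors, 13 of 18 were measured in both genotypes at 4 weeks and none was called. Foxa1, a forkhead factor of epithelia, was seen in WT alone at that age, at least 2.44-fold above Mkx-KO, and was at least 13-fold higher at 10 weeks in Mkx-KO. Nr1i3, which encodes CAR, was at -0.87, -0.83, -3.32 and -3.51, so it was higher at 10 weeks by 2.45 in WT and 2.68 in Mkx-KO. Nr1i2, Hnf4a and Foxa2, named after their values were seen, were well above background on no array. Among conjugating enzymes 2 of 16 were called lower in Mkx-KO at 4 weeks, beside the 3.31% of all genes: Ugt2a1, the olfactory glucuronosyltransferase, at -5.47 and Sult1c1 at -2.74. Both also belong to the olfactory supporting cell list below. Another 3, Sult1d1, Sult1e1 and Ugt8a, were seen in WT alone, with Mkx-KO lower by at least 8.73-fold, 5.12-fold and 2.13-fold. Among other oxidising and hydrolysing enzymes 3 of 14 were called lower at 4 weeks, again beside 3.31%. These were Adh1 at -2.70, Aldh1a1 at -1.26 and Aldh1a7 at -1.09. Ces1d was at least 8.63-fold lower. By bounds, 39.5% of all genes seen in 1 genotype at 4 weeks were at least 2-fold lower in Mkx-KO. At 10 weeks 2 of 17 oxidising and hydrolysing enzymes were called lower in Mkx-KO, and 2 of 20 conjugating enzymes, beside 1.37% of all genes. With age, 7 of 15 oxidising and hydrolysing enzymes were called higher in WT and 0 lower, beside 5.01% and 3.83%. In Mkx-KO 7 of 14 were called higher with age and 1 lower, beside 6.25% and 3.84%.

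Markers of other tissues were also followed, and their lists did not all move alike. The olfactory supporting cell and Bowman gland list summed to 1270, 1672, 599 and 30.7, in signal relative to the 75th percentile. On the first 3 arrays most of it came from Bpifb9b. Of the list's 14 genes, 14 were well above background on the first 3 arrays and 10 on the last. Those not above it there were Muc2, Reg3g, Obp2a and Bpifb9b. At 4 weeks 7 of 10 measured genes were called lower in Mkx-KO, beside 3.31% of all genes, with a median of -2.85. Ermn (0.10), Sox9 (0.14) and Cbr2 (-0.97) were not called. At 10 weeks Bpifb3 (-3.52) and Bpifb4 (-2.80) were called lower in Mkx-KO and Lcn11 (1.34) higher. The olfactory sensory neuron list summed to 63.9, 53.0, 56.9 and 10.0. On the last array 7 of its 16 genes were not well above background. Of its 9 genes measured at 4 weeks, 7 were called lower in Mkx-KO, while Adcy3 (0.02) and Olfm1 (-0.23) were not. Omp, the olfactory marker protein gene, was at a level of 5.16, 4.85, 4.87 and -3.26. The airway club and ciliated cell list summed to 26.2, 33.4, 10.2 and 1.02, on the first 3 arrays mostly from Reg3g, which is also in the supporting cell list, and Sec14l3. Of its 4 genes measured at 4 weeks, 1 was called lower, Foxj1 at -1.68, while the club cell genes Scgb1a1 (-0.51), Scgb3a2 (-0.62) and Bpifb1 (0.28) were not called. Another 4, Scgb3a1, Tekt1, Sec14l3 and Reg3g, were seen in WT alone. By their bounds all were at least 2-fold lower in Mkx-KO, by 4.43-fold or more for Scgb3a1, beside 39.5% of all genes seen in 1 genotype. The salivary gland list summed to 10.4, 10.9, 5.12 and 1.70. Of its 6 genes measured at 4 weeks, 2 were called lower in Mkx-KO, with a median of -0.85. Another 3, seen in WT alone, were at least 2-fold lower by their bounds. The part of these lists in the results for Cyp2a4, Cyp2a5, Cyp2f2 and Cyp2g1 was not tested. The hepatocyte list summed to 19.2, 25.7, 21.9 and 20.1, of which Trf, also made outside liver, gave the most. Of its 12 genes, 7 were measured in both genotypes at 4 weeks, with a median of -0.45 and 1 called lower, Serpina1b at -1.20, and Ahsg was called lower at 10 weeks, also at -1.20. Alb, Apoa1, Fgb and Fga were well above background on no array, and Ttr only in Mkx-KO at 4 weeks.

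**Figure D5:**
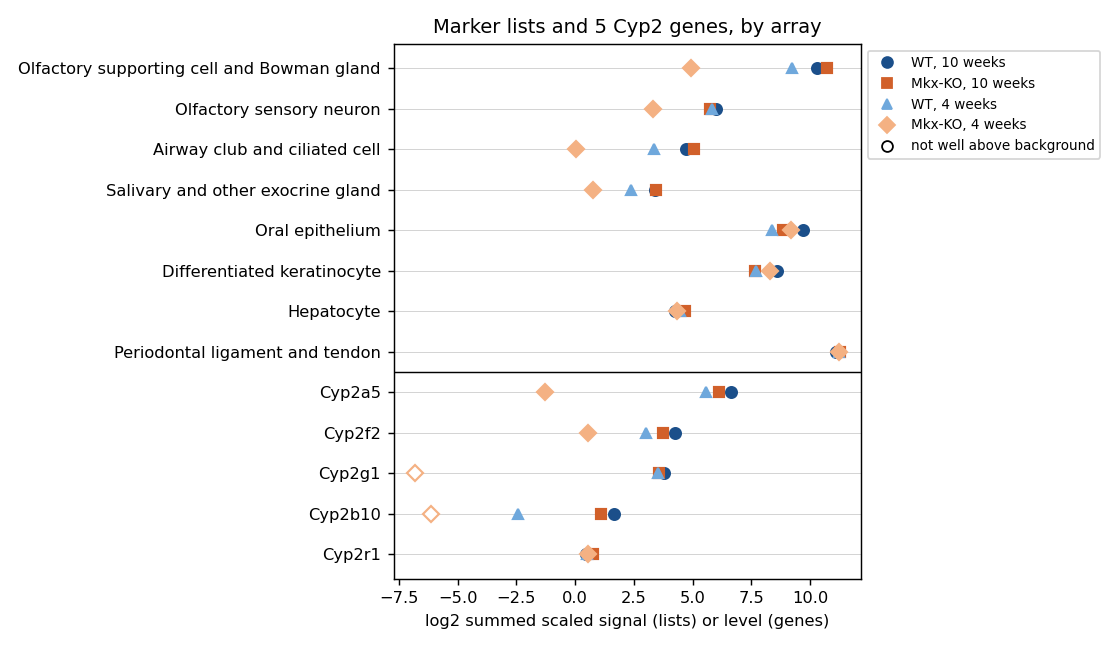
Summed signal of 8 marker lists (log2, relative to the array's 75th percentile) above the line and levels of 5 Cyp2 genes below it, with 1 symbol per array. The olfactory, airway and salivary lists are lowest in Mkx-KO at 4 weeks, as are Cyp2a5, Cyp2f2 and Cyp2g1, while the PDL list stays between 2194 and 2462 before the log.

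Epithelial markers followed another order. The oral epithelium list summed to 842, 459, 332 and 588, and the differentiated keratinocyte list to 386, 200, 205 and 314. The median difference with age of the oral list was 1.11 in WT and -0.30 in Mkx-KO, while Cyp2b9, Cyp2b10 and Cyp2b19, the 3 of 5 Cyp2b genes seen on any array, were higher at 10 weeks in both. Their part in the age results was not tested.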

How the data were processed

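The values are spot intensity from 4 deposited scans, read by the authors with Agilent Feature Extraction 11.5.1.1 per the submitters' processing notes. Per the file headers, that software had already subtracted background from the processed signal. The deposited series table equals that signal times 1 factor per array (1.81, 2.08, 1.64 and 1.54, in the order of the groups in the report), and how these were chosen is not given in the sources used here.

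Probes were named by RefSeq accession. The brightest probe by mean log2 signal stood for its gene, and each array was scaled by the 75th percentile of its non-control probes. Every member is accounted for. Of each other list, at most the 4 measured genes farthest apart on average are named, besides Mkx, Omp and Postn, with exceptions marked. Por, Sult1d1, Ugt8a, Aldh1a1 and the liver, airway and olfactory markers beyond those 4 are such exceptions, named after their values were seen. The members and lists were chosen with earlier results of these data known. Gene order comes from a RefSeq table of a later build than the mm9 array design. The calculation was tested on simulated data.

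Tables and plots were made with pandas 2.3.3, matplotlib 3.10.9 and numpy 2.4.6 under Python 3.11.15, with limma 3.58.1 in R 4.3.3 for normexp (offset 50) as an alternative. The number of arrays limits the precision. Alternatives covered background correction, scaling, probes, filters, bright areas and the fold threshold.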

Additional observations from a re-analysis of the deposited data

Results flagged for a closer look

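Among the 16 members well above background on all 4 arrays, 6 had a difference between Mkx-KO and WT of opposite sign at 4 and 10 weeks. The share of all genes with opposite signs is not given here, so this count has no background beside it. With 1 array per group, the difference between the ages was not tested. The differences were 0.44 at 4 weeks and -0.42 at 10 weeks for Cyp2c38, and 0.05 and -0.15 for Cyp2c70. They were 0.16 and -0.45 for Cyp2d22, and -0.21 and 0.07 for Cyp2d26. They were 0.01 and -0.30 for Cyp2j6, and 0.32 and -0.10 for Cyp2s1. No size was required of a difference here. Requiring both to exceed their technical error left 1 gene, Cyp2c38, and requiring 2 technical errors left 0. Both of these requirements were tried after the values were seen.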

How the results depend on the processing

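No paired analysis was possible because each group had 1 array and the labels give no replicate numbers, and for the same reason no replicate could be left out. Of the summary values under the alternatives, 68 stayed within 1.5 times (counts) or the median technical error (medians) and 20 moved. No called difference changed sign, but the median by genotype at 4 weeks, 0.01, turned negative with the mean over probes (-0.08) and with no filter (-0.14). Background clearance was then required on only 1 array of a pair. By genotype, 11 of 25 members were at least 2-fold apart at 4 weeks in place of 3. At 10 weeks it was 4 of 30 in place of 1, and with age in Mkx-KO 13 of 27 in place of 5. No filter gave 16, 7, 14 (with age in WT, in place of 9) and 17 of 47 members. These values include signals at background. The share of all genes under these filters was not computed, so these counts have no background beside them. A 1.5-fold threshold gave 4 at 10 weeks (8.92% of all genes), and a 3-fold threshold gave 4 with age in WT (3.05%) and 3 in Mkx-KO (3.63%). Normexp gave 3 with age in Mkx-KO (5.2% of all genes). The median by genotype at 4 weeks became -0.21 with members seen on 1 array, measured or at their bound. At 10 weeks the median was -0.12 after normexp and -0.17 with no filter, in place of -0.32. The median with age became 0.70 (WT) and 0.66 (Mkx-KO) in the series table, whose factors move all genes by 0.36 and 0.29. It became 0.59 and 0.74 with members seen on 1 array, and 0.08 in WT with no filter. The scanner's weaker detection call gave 37 members in 4-week WT and 29 in 4-week Mkx-KO, in place of 24 and 18. The share of all genes under that weaker call is not given here. Of the values of single members, 402 stayed on their side of 2-fold, 3 passed it and 5 no longer did. The last concern Cyp2t4 (age, both genotypes) and Cyp2c38 (age, Mkx-KO). The cause was not tested. Low signals over background limit most Cyp2c and Cyp2d members to bounds or no value.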
